A study of Mus musculus with 15 samples.

Results

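Tumors of MAT1A KO mice were compared with peritumoral liver of MAT1A KO mice, the liver tissue around tumors. Members were taken from the sample labels, which gave 5 tumor arrays and 5 peritumoral arrays, 10 of the 15 arrays in the series. All mice had the strain background C57B6SJL and were 15 months old. The tumors came from the liver of MAT1A knockout mice with hepatocellular carcinoma, established by histopathology, and the peritumoral samples came from liver of knockout mice with the same disease. The other 5 arrays are of healthy liver from wild type mice of that age and strain, and served as a reference level. The knockout is therefore carried by both groups compared, and the difference between them is one of tissue and not of genotype. Neither the sex of the mice nor whether a tumor and a peritumoral sample came from 1 animal is given in the labels. Titles name the knockout samples as biological replicates, numbered 1 to 5 in each group, and p-values measure the spread between these samples. Samples are called tumor 1 to 5 and peritumoral 1 to 5 after those numbers. All levels are RMA values on the log2 scale, on which a difference of 1 is a 2-fold difference. Total RNA was made from pulverized pieces of liver, so fewer cells of a type and less RNA per cell cannot be told apart in any value below.

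MAT1A encodes the subunit of the methionine adenosyltransferases of adult liver, which make S-adenosylmethionine (SAMe), the main methyl donor of the cell. Mice without it develop fatty liver, then steatohepatitis and hepatocellular carcinoma. Hepatocellular carcinomas commonly re-express genes of fetal liver such as alpha-fetoprotein, divide more than the liver around them, and lose part of the secretory and metabolic program of the mature hepatocyte. In normal liver that program is zoned along the lobule, with glutamine synthesis and much of drug metabolism near the central vein under Wnt signaling, and urea synthesis near the portal vein. The comparison asked which of these programs separated the tumors from the liver in which they grew.

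Mat1a itself was measured first, as a check of the labels. Its level was 8.72, 10.47, 8.63, 8.33 and 10.50 in tumors 1 to 5 and 8.84, 11.44, 9.02, 8.99 and 9.29 in peritumoral samples 1 to 5, against 12.53 ± 0.23 in wild type liver (SD, n = 5). Both knockout groups lay below wild type liver and overlapped with each other. The log2 ratio of tumors to peritumoral liver was -0.19 (SE 0.61, adjusted p = 0.959 in limma). The files do not say whether the 1 probe set of Mat1a lies inside the deleted part of the gene, so the remaining signal was not interpreted. Mat1a was highest in peritumoral 2, tumor 5 and tumor 2, the arrays that stood apart in the next comparison.

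Arrays 2 of both groups and tumor 5 stood apart from the rest. In a principal component analysis of the 10 arrays the first component, with 37.2% of the variance, put tumor 2 at 58.0 and peritumoral 2 at 55.9, and the second, with 23.0%, put tumor 5 at 67.8. Peritumoral 2 correlated best with tumor 2 (r = 0.966 across genes), while peritumoral 1, 3, 4 and 5 correlated with each other at 0.981 to 0.991. The labels give no batch or date, and the part of such a difference in these arrays was not tested. Hepatocyte markers were high in all arrays, and the mean of Alb, Ttr, Apoa1, Fgb and Cps1 was 13.50 to 14.17 in tumors and 13.95 to 14.11 in peritumoral liver. Adipoq, a marker of adipocytes, lay at 3.23 to 3.71 in tumors and 3.39 to 3.48 in peritumoral liver, near the lowest values of the arrays (2.61 to 2.78). Values given without tumor 2, without tumor 3 or without both arrays numbered 2 are from the fit without pairing unless the block is named.

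**Figure D1:**
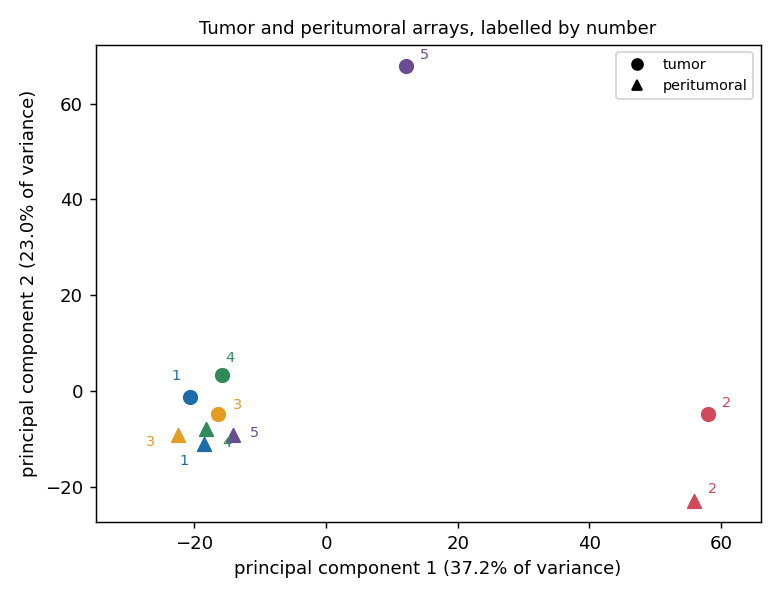
Principal components 1 (37.2% of variance) and 2 (23.0% of variance) of the tumor arrays (circles) and peritumoral arrays (triangles), colored and labelled by number. Tumor 2 (58.0) and peritumoral 2 (55.9) lie apart on the first component and tumor 5 (67.8) on the second.

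Prom1, Psat1 and Nupr1 were the genes whose difference passed an adjusted p of 0.05 in either of the 2 limma fits. In the fit without pairing, 2 of 12393 genes rose in tumors (0.0161%) and 0 fell (0.0%), while 576 were higher (4.65%) and 574 lower (4.63%) when p was left unadjusted and held against 0.05, called nominally higher or lower from here on. With the replicate number as a block, 1 gene rose (0.00807%) and 0 fell, with 767 nominally higher (6.19%) and 879 nominally lower (7.09%). In 151 genes all 5 tumors were above all 5 peritumoral samples (1.22%), and in 138 all were below (1.11%). The count of genes that passed depended on single arrays. Without the arrays numbered 2, 32 genes passed as higher (0.258%) and 8 as lower (0.0646%) in the fit without pairing, and without tumor 2 alone 35 passed as higher (0.282%) and 1 as lower (0.00807%). The balance was reversed without tumor 3, where 9 passed as higher and 21 as lower in limma in that fit. Without tumor 1, tumor 4, peritumoral 3 or peritumoral 5, 0 passed in limma in that fit, with 403 to 561 genes nominally higher and 412 to 564 nominally lower.

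Prom1 encodes prominin-1 (CD133), a membrane protein of bile duct and progenitor cells that is also used as a marker in liver tumors. Its level was 7.83, 6.99, 7.28, 7.09 and 7.60 in tumors 1 to 5, against 3.74, 4.89, 4.23, 5.25 and 4.68 in peritumoral samples 1 to 5. The lowest tumor was well above the highest peritumoral sample. The rise was 6.95-fold (log2 ratio 2.80, SE 0.28, adjusted p = 0.0176 without pairing and 0.0760 with the block). Without pairing it did not pass once tumor 1, tumor 4, peritumoral 3 or peritumoral 5 was left out (adjusted p = 0.0822, 0.0767, 0.0778 and 0.101). Wild type liver lay at 3.73, 3.80, 3.71, 6.39 and 3.90, so that 1 of 5 wild type samples, replicate 4, was above all peritumoral samples and below all tumors. Prom1 is measured by 1 probe set, of a type that can bind other transcripts of the same gene.

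Psat1 encodes phosphoserine aminotransferase, an enzyme of serine synthesis from glycolysis. Its level was 7.11, 6.66, 5.89, 6.68 and 7.63 in tumors 1 to 5, against 3.65, 3.65, 3.55, 4.62 and 3.72 in peritumoral samples 1 to 5. All tumors were above all peritumoral samples, of which 4 lay within 3.55 to 3.72 and peritumoral 4 at 4.62. The rise was 7.76-fold (log2 ratio 2.96, SE 0.32, adjusted p = 0.0176 without pairing and 0.0544 with the block). Without pairing it did not pass once tumor 1, tumor 4, peritumoral 1, peritumoral 3 or peritumoral 5 was left out (adjusted p = 0.0903, 0.0876, 0.103, 0.0778 and 0.103). Both probe sets of Psat1 moved alike, with log2 ratios of 3.16 and 2.75. Wild type liver averaged 3.59 ± 0.23 (SD, n = 5), close to the peritumoral level of 3.84 ± 0.44.

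Nupr1 encodes a small nuclear protein induced by cell stress. Its level was 9.12, 7.71, 7.77, 9.28 and 8.22 in tumors 1 to 5, against 5.52, 4.91, 5.07, 6.86 and 5.76 in peritumoral samples 1 to 5. All tumors were above all peritumoral samples, and sample 4 was the highest of both groups. Nupr1 rose in the fit with the block (log2 ratio 2.80, SE 0.19, adjusted p = 0.0239) and did not pass without it (SE 0.43, adjusted p = 0.0807). In the fit without pairing it did pass without tumor 2 (adjusted p = 0.0400) or without tumor 3 (0.0483). With the block it passed without number 1 (adjusted p = 0.0172) and did not pass without number 2, 3, 4 or 5 (adjusted p = 0.0637, 0.0754, 0.103 and 0.0929). Wild type liver averaged 4.62 ± 0.08 (SD, n = 5), below every peritumoral sample.

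Afp, which encodes alpha-fetoprotein, the main serum protein of fetal liver and a serum marker of hepatocellular carcinoma, had the next smallest p among the named genes in the fit without pairing. Its level was 6.44, 7.54, 6.40, 7.32 and 7.89 in tumors 1 to 5, against 4.47, 4.80, 4.86, 5.46 and 4.83 in peritumoral samples 1 to 5 and 3.94 ± 0.13 in wild type liver. The groups did not overlap, but the average over its probe sets did not pass (log2 ratio 2.24, SE 0.31, adjusted p = 0.0807 without pairing and 0.0682 with the block). It passed without tumor 2 (adjusted p = 0.0400) and without tumor 3 (0.0177). Its 5 probe sets disagreed. The log2 ratio was 3.73, 3.65 and 3.46 in the first 3 and 0.12 and 0.21 in the other 2, and tested one by one the probe sets at 3.73 and 3.46 passed (adjusted p = 0.0419 each).

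**Figure D2:**
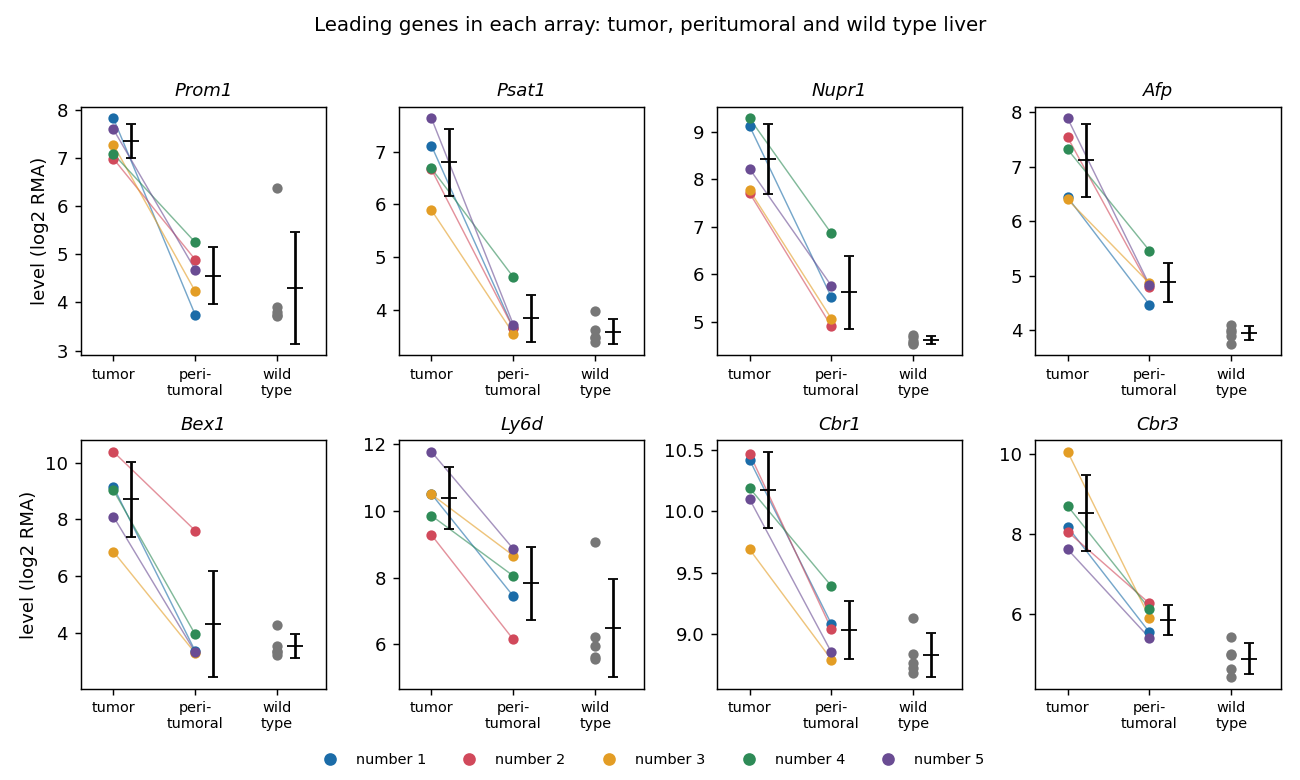
Level (log2 RMA) of 8 genes in each tumor, peritumoral and wild type array, with lines joining tumor and peritumoral arrays of the same number and bars giving the mean and SD (n = 5 a group). In all 8 genes every tumor lies above the peritumoral array of its number, and in Bex1 peritumoral 2 (7.60) lies above tumor 3 (6.86).

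The other genes with the smallest p did not pass in either fit of all 10 arrays and are given as values. Bex1, a small adaptor protein of neurons and progenitor cells, had the largest ratio among those named, with 9.15, 10.39, 6.86, 9.03 and 8.10 in tumors 1 to 5, against 3.34, 7.60, 3.27, 3.93 and 3.30 in peritumoral samples 1 to 5. Peritumoral 2 overlapped with the tumors, and the log2 ratio was 4.42 (adjusted p = 0.173 without pairing and 0.0544 with the block). Without both arrays numbered 2 the log2 ratio was 4.83 and passed (adjusted p = 0.0234). Ly6d, a membrane protein of the Ly6 family, stood at 10.51, 9.28, 10.50, 9.86 and 11.78 in tumors 1 to 5, against 7.44, 6.14, 8.66, 8.05 and 8.86 in peritumoral samples 1 to 5. All tumors were above all peritumoral samples, with a log2 ratio of 2.56 (adjusted p = 0.180 without pairing and 0.0544 with the block). In wild type liver Ly6d reached 9.07 in replicate 4, the same sample that was high for Prom1.

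Among the lower genes, Dpyd, which encodes the enzyme that starts the breakdown of uracil and thymine, stood at 9.94, 10.11, 9.90, 9.66 and 9.83 in tumors 1 to 5, against 10.90, 10.92, 10.73, 10.48 and 10.55 in peritumoral samples 1 to 5. The groups did not overlap, and the log2 ratio was small but even, -0.83 (SE 0.12, adjusted p = 0.0807 without pairing and 0.0753 with the block). Slc6a12, a transporter of betaine, stood at 7.69, 6.61, 7.58, 7.40 and 7.26 in tumors 1 to 5, against 8.75, 7.92, 8.52, 8.80 and 8.68 in peritumoral samples 1 to 5 (log2 ratio -1.23, adjusted p = 0.148 without pairing and 0.0544 with the block). Cxcl12, a chemokine, stood at 8.0, 7.35, 8.99, 8.47 and 7.71 in tumors 1 to 5, against 9.80, 9.44, 9.42, 9.76 and 9.81 in peritumoral samples 1 to 5. Its log2 ratio of -1.54 (adjusted p = 0.141) was the largest negative ratio among the 10 lower genes with the smallest p in that fit, and all tumors were below all peritumoral samples. The ligands Gdf2 (BMP9) and Gdf10, of the TGF-beta family, were also lower in every tumor than in any peritumoral sample, with log2 ratios of -1.26 and -1.23 (adjusted p = 0.173 and 0.0807 without pairing). So were Mfsd4b1, Smpd3, which makes ceramide from sphingomyelin, and Zeb2, a repressor of epithelial genes, with log2 ratios of -1.18, -0.80 and -1.11 (adjusted p = 0.0807, 0.0807 and 0.0977). Without both arrays numbered 2, the differences of Slc6a12 (adjusted p = 0.0234), Dpyd (0.0467), Mfsd4b1 (0.0467) and Smpd3 (0.0489) passed as lower, and without tumor 2 alone that of Dpyd did (0.0343). Without tumor 3, those of Mfsd4b1 (adjusted p = 0.0123), Cxcl12 (0.0177), Gdf10 (0.0225) and Zeb2 (0.0279) passed as lower.

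Psat1 and Nupr1 belong to a list of 31 genes of the stress response led by the transcription factor ATF4, which is translated when amino acids are short or proteins misfold and which drives amino acid synthesis. Of the 31, 1 rose in each fit, Psat1 without pairing and Nupr1 with the block. Without pairing 9 were nominally higher (29.0%, against 4.65% of all genes) and 0 nominally lower. With the block 11 were higher (35.5%, against 6.19%) and 1 lower (3.23%, against 7.09%). The median log2 ratio was 0.19, against 0.02 over all genes. In 3 of the 31 all tumors were above all peritumoral samples (9.68%, against 1.22% of all genes). The list was made with earlier results of these data known, so this share is a description. Without both arrays numbered 2, 3 of the 31 passed as higher, Psat1, Fgf21 (adjusted p = 0.0412) and Mthfd2 (0.0489), and without tumor 2 alone Psat1, Nupr1 and Mthfd2 did. Of all genes, 0.258% and 0.282% passed as higher in these 2 settings. With the block and without number 2, Fgf21 passed (adjusted p = 0.0268). The members that follow, from Phgdh on, were chosen after their values were seen. Positive ratios were seen for all 3 enzymes of serine synthesis. Phgdh, the first of them, stood at 6.31, 6.54, 6.48, 6.78 and 7.23 in tumors 1 to 5, against 5.61, 6.19, 5.72, 5.72 and 5.51 in peritumoral samples 1 to 5, with no overlap (log2 ratio 0.92, SE 0.19). Psph, the last, had a log2 ratio of 1.90 (SE 0.67), with its highest levels in tumor 5 (9.56) and tumor 2 (8.18). Mthfd2, of mitochondrial folate metabolism, stood at 5.13 to 6.10 in tumors and 4.66 to 5.25 in peritumoral liver (log2 ratio 0.90, SE 0.19). Fgf21, a stress hormone of the liver, stood at 8.0, 5.34, 8.53, 9.06 and 8.24 in tumors 1 to 5, against 6.01, 4.80, 6.37, 7.05 and 6.29 in peritumoral samples 1 to 5. Tumor 2 was the 1 tumor within the peritumoral range. Atf3, a transcription factor of the same response, had a log2 ratio of 1.47 (SE 0.43). Asns, which makes asparagine, and Chac1, which degrades glutathione, differed little, with log2 ratios of -0.05 (SE 0.44) and -0.24 (SE 0.28).

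Promoters of this list were searched on both strands for TGATGNAA, the sequence that ATF4 binds together with C/EBP proteins. RefSeq windows (GRCm38.p6) run 250 bases before to 50 bases after each start, and 29 of the 31 genes had one. The letters were in the windows of 9 of these genes, and in 1304 of all 32851 windows (3.97%). The match is a description of the sequence and not a measured site. The 3 windows shown belong to the members with a match that had the largest log2 ratios, Nupr1 (2.80), Fgf21 (1.73) and Atf3 (1.47), and capitals mark the match, which reads TTGCATCA on the gene's strand. Nupr1 is at chr7:126625421-126625720, Fgf21 at chr7:45615441-45615740 and Atf3 at chr1:191183284-191183583, all on the minus strand and printed 5′ to 3′ along the gene.
Nupr1: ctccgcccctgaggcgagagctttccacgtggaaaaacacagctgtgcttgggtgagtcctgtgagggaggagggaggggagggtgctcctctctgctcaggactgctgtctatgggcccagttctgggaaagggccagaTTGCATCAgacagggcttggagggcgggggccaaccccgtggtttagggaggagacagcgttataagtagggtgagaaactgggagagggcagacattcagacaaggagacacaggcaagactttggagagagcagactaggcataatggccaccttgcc
Fgf21: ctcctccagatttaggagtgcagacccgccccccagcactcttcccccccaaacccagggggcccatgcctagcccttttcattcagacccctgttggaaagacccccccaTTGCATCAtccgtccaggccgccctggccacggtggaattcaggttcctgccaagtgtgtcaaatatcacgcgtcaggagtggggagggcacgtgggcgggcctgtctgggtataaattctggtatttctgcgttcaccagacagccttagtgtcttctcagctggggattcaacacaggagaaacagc
Atf3: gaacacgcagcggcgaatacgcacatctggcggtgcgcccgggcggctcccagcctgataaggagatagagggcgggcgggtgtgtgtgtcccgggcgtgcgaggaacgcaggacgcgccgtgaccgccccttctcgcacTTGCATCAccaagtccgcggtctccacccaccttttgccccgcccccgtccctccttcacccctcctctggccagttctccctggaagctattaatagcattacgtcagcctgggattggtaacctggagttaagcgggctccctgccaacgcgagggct
The match begins 110 bases before the start in Nupr1 and Atf3 and 139 bases before it in Fgf21. The other 6 members with a match had log2 ratios from -0.52 to 0.76. These were Trib3 (0.76), Vldlr (0.56), Slc7a11 (0.19), Asns (-0.05), Chac1 (-0.24) and Herpud1 (-0.52). Both windows of Psat1 were without a match. Members with a match thus spanned log2 ratios on both sides of 0.

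NRF2 is a transcription factor that is released by oxidants and electrophiles and induces detoxifying enzymes. Of 35 of its targets, 0 passed in limma in either fit. Without pairing 7 were nominally higher (20.0%, against 4.65% of all genes) and 1 nominally lower (2.86%, against 4.63%). With the block 11 were higher (31.4%, against 6.19%) and 1 lower (2.86%, against 7.09%). Their log2 ratios had a median of 0.26. The carbonyl reductases led the list. Cbr3 stood at 8.18, 8.06, 10.05, 8.70 and 7.62 in tumors 1 to 5, against 5.55, 6.27, 5.92, 6.14 and 5.41 in peritumoral samples 1 to 5 (log2 ratio 2.67, adjusted p = 0.0807 without pairing and 0.0882 with the block). Cbr1 stood at 10.42, 10.47, 9.69, 10.19 and 10.10 in tumors 1 to 5, against 9.08, 9.04, 8.79, 9.39 and 8.85 in peritumoral samples 1 to 5 (log2 ratio 1.15, adjusted p = 0.0807 without pairing and 0.0760 with the block). In both genes every tumor was above every peritumoral sample. Nqo1, a quinone reductase named after its values were seen, was the third target without overlap (log2 ratio 1.19, SE 0.24). Without both arrays numbered 2, Nqo1 passed as higher (adjusted p = 0.0467), and without tumor 2 alone Cbr1 (0.0477), Cbr3 (0.0433) and Nqo1 (0.0343) did. Without tumor 3, Cbr1 and Cbr3 passed as higher (adjusted p = 0.0123 each). The tumors were not alike. Of the 35 targets, 24, 25 and 26 were above all peritumoral samples in tumors 1, 3 and 4, but 6 and 7 in tumors 2 and 5, where 11 and 10 were below all of them. Over all genes, 17.5%, 26.0%, 14.8%, 21.7% and 33.8% were above all peritumoral samples in tumors 1 to 5, and 18.2%, 20.5%, 24.2%, 15.6% and 23.9% were below.

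Cell cycle genes were higher in most tumors. Of 45 genes of the cell cycle and DNA replication, all 45 had a log2 ratio above 0, against 6695 of all 12393 genes. None passed in limma in either fit (0 of 45), but 27 were nominally higher and 0 nominally lower without pairing, and 26 and 0 with the block. The median log2 ratio was 0.56, against 0.02 over all genes, and 22 of the 45 were higher in all 5 numbers (6.42% of all genes were). By number the median difference was 1.10, 0.06, 0.52, 0.64 and 0.45, so number 2 was near 0. Cdk1, the kinase that drives mitosis, stood at 8.0, 5.64, 6.90, 7.66 and 8.20 in tumors 1 to 5, against 4.99, 4.79, 5.06, 5.64 and 5.62 in peritumoral samples 1 to 5. Tumor 2 was level with the highest peritumoral sample and the other 4 tumors were above it (log2 ratio 2.06, adjusted p = 0.173 without pairing and 0.121 with the block). Birc5 (survivin), which guides chromosomes at division, stood at 7.18, 4.27, 5.45, 6.51 and 6.98 in tumors 1 to 5, against 3.63, 3.53, 3.92, 4.27 and 4.65 in peritumoral samples 1 to 5 (log2 ratio 2.08, adjusted p = 0.245 without pairing and 0.162 with the block). Again tumor 2 lay within the peritumoral range and the other 4 tumors above it. Rrm2, a subunit of the enzyme that makes deoxyribonucleotides, chosen after its values were seen, differed from this in being highest in tumor 2, at 9.30 in tumor 2 and 6.04 to 6.89 in the other tumors, against 4.91 to 5.67 in peritumoral liver.

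The result of this list rested on how the arrays numbered 2 were treated. Without tumor 2, 11 of the 45 genes passed as higher in the fit without pairing (0.282% of all genes did). Without both arrays numbered 2, 7 passed (0.258% of all genes did). Cdk1 passed in both cases (adjusted p = 0.0242 without tumor 2 and 0.0386 without both). Birc5 (0.0394) and Rrm2 (0.0400) passed without tumor 2. With the block and without number 2, 0 of the 45 passed in limma and 31 were nominally higher, among 680 of all genes that were nominally higher. With array weights, which give arrays that vary more a lower weight (0.344 for tumor 2, 0.324 for peritumoral 2 and 0.246 for tumor 5), 30 of the 45 passed as higher, among 380 of all genes that passed as higher (3.07%) and 293 as lower (2.36%). Without the arrays numbered 2 and 5 together, which left 6 arrays, 0 passed in limma and 37 of the 45 were nominally higher. No cell cycle gene was below all peritumoral samples in tumors 1, 3 and 4, where 18.2%, 24.2% and 15.6% of all genes were. In tumor 2, 9 were (20.0%), near the share of all genes in this tumor (20.5%). In tumor 5, 2 were (4.4%, against 23.9% of all genes).

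**Figure D3:**
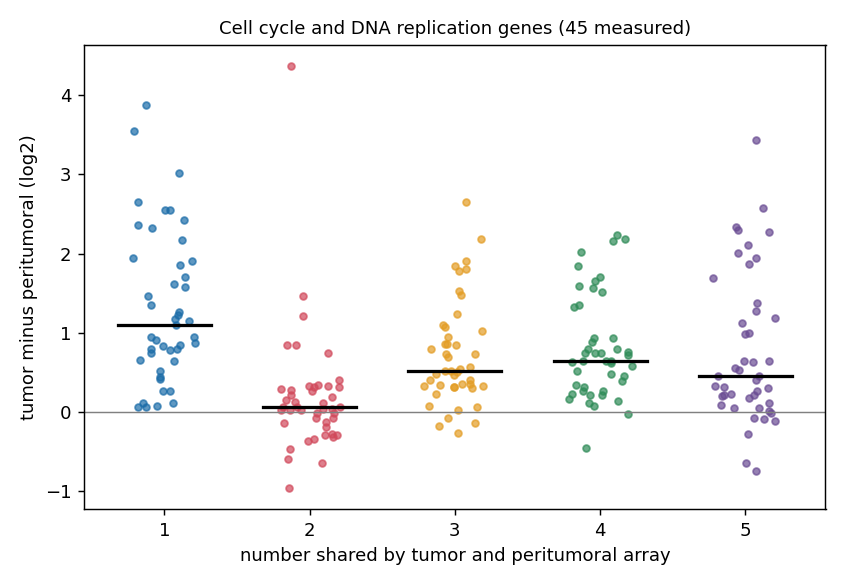
Difference of tumor minus peritumoral level (log2) for each of 45 cell cycle and DNA replication genes (points), by the number that the arrays share, with the median as a bar. The medians are 1.10, 0.06, 0.52, 0.64 and 0.45, and the points of number 2 lie on both sides of 0.

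Genes of fetal liver and liver tumors were also higher on the whole, but with different members in different tumors. Of 35 oncofetal and tumor marker genes, 1 rose in limma without pairing (Prom1) and 0 with the block, and 14 were nominally higher and 1 nominally lower. Without both arrays numbered 2, 4 passed as higher (0.258% of all genes did), and without tumor 2 alone 3 did (0.282% of all genes). In 6 of the 35 all tumors were above all peritumoral samples (17.1%, against 1.22% of all genes). This list, which holds Prom1, Ly6d and Bex1, was made with earlier results of these data known. The share is therefore a description and not a test. Their median log2 ratio was 0.54, and by number it was 0.57, 0.25, 1.54, 0.17 and 0.27. The next 4 genes were chosen after their values were seen. Igf2, a fetal growth factor, stood at 4.48, 11.25, 7.79, 5.26 and 4.69 in tumors 1 to 5, against 4.44 to 5.82 in peritumoral liver. Tumors 2 and 3 were high and the other 3 lay in the peritumoral range. Gpc3, a surface proteoglycan of fetal liver, stood at 7.24 in tumor 4 and 3.76 to 4.83 in the other tumors, against 6.45 in peritumoral 2 and 3.68 to 4.05 in the other peritumoral samples. Tff3, a secreted trefoil peptide, stood at 7.86, 11.69, 9.22, 6.85 and 13.88 in tumors 1 to 5, against 5.80 to 7.83 in peritumoral liver. S100a6, a calcium-binding protein, was above all peritumoral samples in every tumor, at 7.40 to 8.11 in tumors and 5.06 to 7.30 in peritumoral liver (log2 ratio 1.79, SE 0.36), and passed without both arrays numbered 2 (adjusted p = 0.0386).

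Tumor 3 differed from the others in markers of bile duct and progenitor cells. Of 17 such genes 1 rose in limma without pairing (Prom1) and 0 with the block. Without pairing 4 were nominally higher (23.5%, against 4.65% of all genes) and 0 nominally lower. The median difference was 1.74 for number 3 and -0.03, 0.13, -0.04 and 0.08 for numbers 1, 2, 4 and 5. In tumor 3, 14 of the 17 were above all peritumoral samples (82.4%, against 14.8% of all genes), and in the other tumors 2 to 6 were. The shares in tumors 1, 2, 4 and 5 were 11.8%, 35.3%, 23.5% and 23.5%. Those of all genes were 17.5%, 26.0%, 21.7% and 33.8%. Epcam, an adhesion protein of bile duct epithelium, stood at 7.54 in tumor 3 and 3.96 to 4.94 in the other tumors, against 3.93 to 5.50 in peritumoral liver. Cd24a stood at 9.46 in tumor 3 and 5.03 to 5.93 in the other tumors, against 4.88 to 6.11 in peritumoral liver. Genes of the extracellular matrix and stellate cells were, as a list, highest in the same tumor. The median difference of 48 such genes was 1.22 for number 3 and 0.01, -0.59, -0.05 and -0.36 for numbers 1, 2, 4 and 5. In tumor 3, 30 of the 48 were above all peritumoral samples (62.5%, against 14.8% of all genes) and 5 below (10.4%, against 24.2%). Col1a1, of fibrillar collagen, stood at 8.21 in tumor 3 and 4.34 to 5.48 in the other tumors, against 4.49 to 4.96 in peritumoral liver. Epcam, Cd24a and Col1a1 were chosen after their values were seen. Over all 5 tumors the matrix genes were mixed, and 0 passed in limma in either fit. Without pairing 4 were nominally higher (8.33%, against 4.65% of all genes) and 7 nominally lower (14.6%, against 4.63%). Reln, a secreted matrix protein made by stellate cells, was lower in all tumors, at 5.68 to 8.72 against 8.97 to 9.49 in peritumoral liver (log2 ratio -1.82, adjusted p = 0.260 without pairing and 0.162 with the block).

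Of the 40 gene lists, pericentral and Wnt target genes had the widest range of median differences among the numbers. Of 25 pericentral and Wnt target genes 0 passed in limma in either fit and 0 were nominally higher or lower without pairing, with 1 higher and 0 lower with the block. Their median log2 ratio was 0.12, but the median difference was 1.86, -0.42, -0.50, 1.22 and -1.93 for numbers 1 to 5. Glul, glutamine synthetase of the cells around the central vein, stood at 13.30, 10.46, 10.76, 13.07 and 7.60 in tumors 1 to 5, against 11.34, 10.37, 11.12, 10.73 and 11.05 in peritumoral samples 1 to 5. Tumors 1 and 4 lay above every peritumoral sample, tumor 5 below all of them, and tumors 2 and 3 within their range. Axin2, a feedback inhibitor that reads out Wnt signaling, stood at 6.49, 4.73, 4.41, 6.05 and 4.53 in tumors 1 to 5, against 4.68 to 4.87 in peritumoral liver. Lgr5, a receptor of R-spondins, stood at 8.98, 4.64, 5.05, 7.43 and 4.57 in tumors 1 to 5, against 4.64 to 6.12 in peritumoral liver. Nkd1, another Wnt feedback gene, stood at 8.49, 4.13, 3.82, 7.05 and 4.23 in tumors 1 to 5, against 3.72 to 4.24 in peritumoral liver. All 3 were high in tumors 1 and 4 and within or below the peritumoral range in tumors 2, 3 and 5. Most genes of the list were high in the same tumors. In tumors 1 and 4, 23 and 19 of the 25 genes were above all peritumoral samples and 0 below, while in tumors 2, 3 and 5, 13, 6 and 18 were below and 2, 2 and 1 above. Of all genes, 17.5% and 21.7% were above in tumors 1 and 4, and 20.5% and 23.9% below in tumors 2 and 5. In tumor 3 the share below (24.0%) was that of all genes in this tumor (24.2%). Gstm3, a glutathione transferase, was higher in each tumor than in the peritumoral sample of its number, at 12.42, 9.97, 11.69, 12.16 and 9.31 in tumors 1 to 5, against 9.34, 7.37, 9.86, 11.60 and 8.51 in peritumoral samples 1 to 5 (log2 ratio 1.78, adjusted p = 0.566 without pairing and 0.175 with the block). Tumors 1, 3 and 4 lay above the peritumoral range for this gene. In tumor 5 Cyp2e1, an abundant pericentral cytochrome P450, was at 11.53, against 13.88 to 14.15 in peritumoral liver. Apart from Nkd1 and Gstm3, these genes were chosen after their values were seen, and tumors were not grouped or tested by them.

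**Figure D4:**
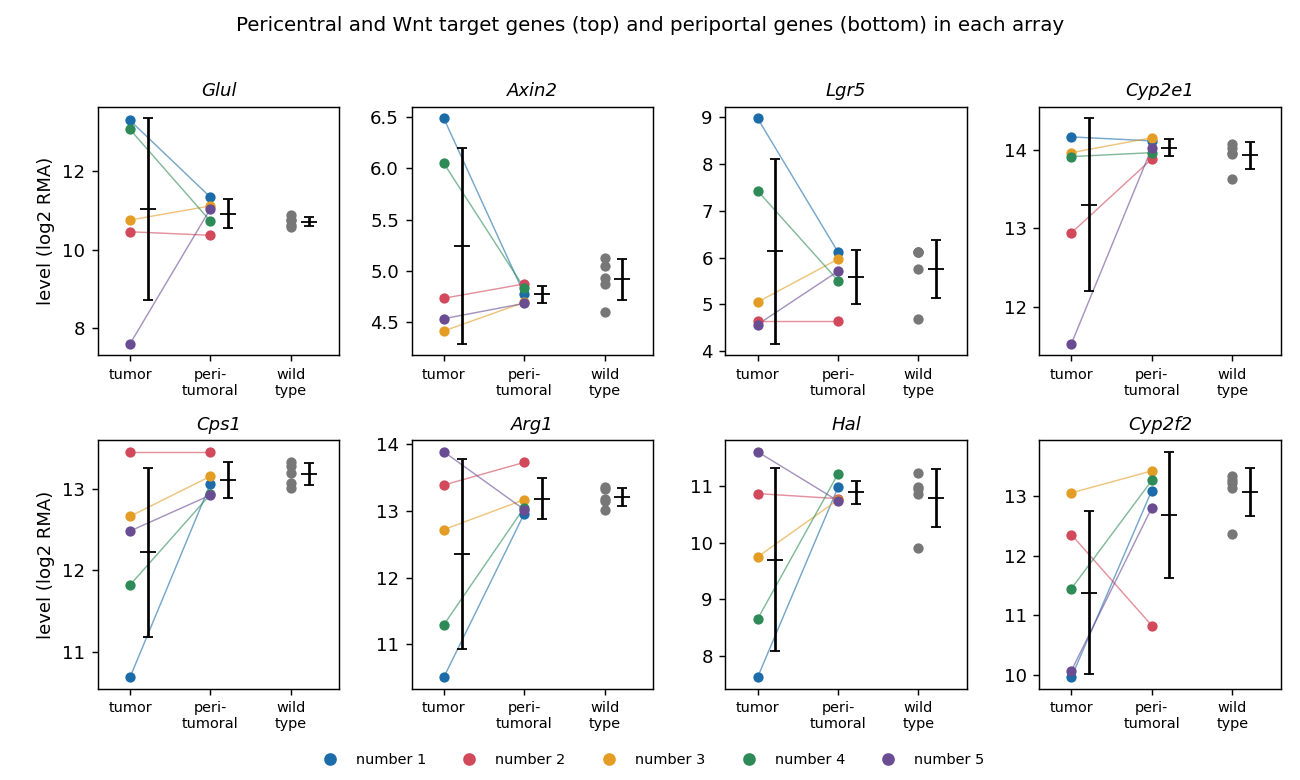
Level (log2 RMA) of 4 pericentral or Wnt target genes (top) and 4 periportal genes (bottom) in each tumor, peritumoral and wild type array, with lines joining arrays of the same number and bars giving the mean and SD (n = 5 a group, with coinciding points overlaid). Tumors 1 and 4 are the highest tumors for Glul, Axin2 and Lgr5 and the lowest for Cps1, Arg1 and Hal.

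Periportal genes were low in tumors 1, 3 and 4. In tumors 1 to 5, 18, 2, 13, 13 and 5 of the 24 genes were below all peritumoral samples (75.0%, 8.3%, 54.2%, 54.2% and 20.8%). Of all genes, 18.2%, 20.5%, 24.2%, 15.6% and 23.9% were. Of 24 periportal and urea cycle genes 0 passed in limma in either fit. Without pairing 0 were nominally higher and 2 nominally lower (8.33%, against 4.63% of all genes). With the block 0 were higher and 4 lower (16.7%, against 7.09%). Their median log2 ratio was -0.53, and by number it was -1.60, 0.00, -0.47, -0.99 and 0.13. Cps1, which starts the urea cycle, stood at 10.69, 13.45, 12.66, 11.82 and 12.48 in tumors 1 to 5, against 12.92 to 13.45 in peritumoral liver. Arg1, which ends it, stood at 10.50, 13.39, 12.72, 11.29 and 13.89 in tumors 1 to 5, against 12.96 to 13.73 in peritumoral liver. Hal, which breaks down histidine, stood at 7.62, 10.87, 9.75, 8.65 and 11.61 in tumors 1 to 5, against 10.74 to 11.22 in peritumoral liver. Tumors 1, 3 and 4 were below the peritumoral range for all 3 genes, with tumor 1 the lowest. Tumor 5 was above the peritumoral range for Arg1 and Hal but below it for Cps1. These genes were chosen after their values were seen. Tat, which starts tyrosine breakdown, was lower in each tumor than in the peritumoral sample of its number, with a log2 ratio of -0.63 (adjusted p = 0.807 without pairing and 0.221 with the block).

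The transcription factors of the hepatocyte were lower on the whole. Of 22 factors, 20 had a log2 ratio below 0, against 5698 of all 12393 genes. None passed in limma (0 of 22 in either fit). Without pairing 0 were nominally higher and 5 nominally lower (22.7%, against 4.63% of all genes). With the block 0 were higher and 8 lower (36.4%, against 7.09%). Their median log2 ratio was -0.40, and 7 were lower in all 5 numbers (7.03% of all genes were). Hnf4a, a central regulator of hepatocyte genes, stood at 9.60, 9.94, 9.28, 9.40 and 8.97 in tumors 1 to 5, against 9.95, 10.65, 9.75, 9.54 and 10.11 in peritumoral samples 1 to 5. Each tumor was below the peritumoral sample of its number, but the groups overlapped (log2 ratio -0.56, SE 0.23, adjusted p = 0.505 without pairing and 0.233 with the block). Wild type liver averaged 9.68 ± 0.33 (SD, n = 5), between the means of tumors and peritumoral liver. Nfib was likewise lower in all 5 numbers (log2 ratio -0.69, adjusted p = 0.341 without pairing and 0.162 with the block). The tumors differed, with 11 of the 22 factors below all peritumoral samples in tumor 5 and 3 in tumor 3. Of all genes, 23.9% were below in tumor 5 and 24.2% in tumor 3. The share of the factors was thus above that of all genes in tumor 5 and under it in tumor 3.

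Secreted proteins of the hepatocyte were lower in part. Of 43 complement and coagulation genes 0 passed in limma in either fit. Without pairing 0 were nominally higher and 10 nominally lower (23.3%, against 4.63% of all genes). With the block 0 were higher and 12 lower (27.9%, against 7.09%). Their median log2 ratio was -0.34, and in 4 of the 43 all tumors were below all peritumoral samples (9.30%, against 1.11% of all genes). F7, coagulation factor VII, stood at 8.66, 9.25, 9.53, 9.19 and 9.05 in tumors 1 to 5, against 9.92, 9.85, 9.92, 10.29 and 10.43 in peritumoral samples 1 to 5, with no overlap (log2 ratio -0.94, SE 0.18, adjusted p = 0.148 without pairing and 0.162 with the block). C8a, of the terminal complement complex, stood at 10.50, 7.05, 11.75, 11.30 and 10.79 in tumors 1 to 5, against 12.79, 9.72, 12.15, 12.65 and 12.67 in peritumoral samples 1 to 5. The samples numbered 2 were the lowest of both groups. Of 30 acute phase genes, made by the liver in inflammation, 0 passed in limma in either fit, with 0 nominally higher and 2 nominally lower without pairing and 1 and 12 with the block. Saa2, serum amyloid A, was lower in each tumor than in the peritumoral sample of its number, at 9.73, 6.22, 11.43, 9.81 and 12.99 in tumors 1 to 5, against 13.26, 9.76, 12.12, 12.46 and 14.23 in peritumoral samples 1 to 5. The groups overlapped, and the difference did not pass in either fit (log2 ratio -2.33, SE 1.21, adjusted p = 0.610 without pairing and 0.162 with the block). Alb, albumin itself, differed by 0.02 (SE 0.08).

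Metabolic genes of the hepatocyte differed by group. Of 49 cytochrome P450 genes of families 1 to 4, 0 passed in limma in either fit, with a median log2 ratio of -0.26. Without pairing 0 were nominally higher and 5 nominally lower (10.2%, against 4.63% of all genes). With the block 1 was higher (2.04%, against 6.19%) and 15 lower (30.6%, against 7.09%). Of 29 genes of bile acid synthesis and transport 0 passed in limma in either fit. Without pairing 0 were nominally higher and 4 nominally lower (13.8%, against 4.63% of all genes). With the block 2 were higher (6.9%, against 6.19%) and 8 lower (27.6%, against 7.09%). Their median difference was -1.14 for number 5, -0.50 for number 3, and 0.06 to 0.16 for numbers 1, 2 and 4. Cyp7a1, the rate-limiting enzyme of bile acid synthesis, stood at 9.77, 5.21, 8.58, 9.92 and 4.82 in tumors 1 to 5, against 6.95 in peritumoral 2 and 8.55 to 9.32 in the other peritumoral samples (chosen after its values were seen). Tumors 2 and 5 lay below and tumors 1 and 4 above the peritumoral range. Genes of fatty acid oxidation (median log2 ratio -0.03), fatty acid and cholesterol synthesis (-0.03), glycolysis (0.03) and conjugating enzymes (-0.13) had medians closer to that of all genes (0.02), with 1 to 4 nominally higher and 1 nominally lower in each without pairing.

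In the pathway of the deleted gene, methionine and SAMe metabolism, 0 of 29 genes passed in limma in either fit. Without pairing 1 was nominally higher (3.45%, against 4.65% of all genes) and 4 nominally lower (13.8%, against 4.63%). With the block 2 were higher (6.9%, against 6.19%) and 7 lower (24.1%, against 7.09%). The median log2 ratio was -0.19. Without both arrays numbered 2, 1 of the 29 passed as lower, among 8 of all genes (0.0646%). Sardh, which demethylates sarcosine, stood at 9.79, 9.01, 10.03, 9.56 and 8.27 in tumors 1 to 5, against 10.56, 9.61, 10.73, 10.60 and 10.27 in peritumoral samples 1 to 5 (log2 ratio -1.02, adjusted p = 0.393 without pairing and 0.168 with the block). Its preceding enzyme Dmgdh, chosen after its values were seen, had a log2 ratio of -1.25 (SE 0.29). Ahcy, which splits the S-adenosylhomocysteine left by methyl transfer, was lower in each tumor than in the peritumoral sample of its number, with differences of -0.51 to -0.37 (mean -0.43, adjusted p = 0.622 without pairing and 0.164 with the block). Gnmt, the most abundant methyltransferase that consumes SAMe in liver, had a log2 ratio of -0.31 (SE 0.21, chosen after its value was seen).

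Markers of other cells differed in both directions. Of 29 endothelial genes 0 passed in limma in either fit. Without pairing 5 were nominally higher (17.2%, against 4.65% of all genes) and 6 nominally lower (20.7%, against 4.63%). Esam, a junction protein of endothelial cells, stood at 9.03, 7.71, 7.78, 8.13 and 7.62 in tumors 1 to 5, against 6.81, 7.11, 6.43, 7.08 and 6.85 in peritumoral samples 1 to 5 (log2 ratio 1.20, adjusted p = 0.173). Emcn was likewise higher in all tumors, at 5.75 to 7.25 against 4.13 to 5.04 in peritumoral liver (log2 ratio 1.56, SE 0.30). Ehd3, found in the endothelium of liver sinusoids, was lower in all tumors, at 6.35 to 7.28 against 7.71 to 8.31 in peritumoral liver (log2 ratio -0.96, adjusted p = 0.161). Stab2, a scavenger receptor of sinusoidal endothelium, was also lower in all tumors, at 5.71 to 7.24 against 7.32 to 8.07 in peritumoral liver (log2 ratio -1.06, SE 0.31). The mean of 5 endothelial markers was 5.54 to 6.27 in tumors and 5.65 to 6.31 in peritumoral liver. Of these 5, Lyve1 was not lower in tumors, at 5.01 to 6.34 against 4.55 to 5.64 in peritumoral liver, with overlap. Emcn and Stab2 were chosen after their values were seen.

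Of 32 macrophage genes 0 passed in limma in either fit. Without pairing 2 were nominally higher (6.25%, against 4.65% of all genes) and 5 nominally lower (15.6%, against 4.63%). Cd163, a hemoglobin scavenger receptor, stood at 4.27, 5.51, 5.03, 4.40 and 4.04 in tumors 1 to 5, against 7.70, 6.78, 5.41, 7.07 and 7.88 in peritumoral samples 1 to 5. Tumor 2 overlapped with peritumoral 3 (log2 ratio -2.31, adjusted p = 0.162). Clec4f, a lectin of Kupffer cells, the resident macrophages of the liver, was lower in each tumor than in the peritumoral sample of its number (log2 ratio -1.31, adjusted p = 0.301 without pairing and 0.162 with the block). Lgals3, a galectin of recruited macrophages and also of tumor cells, was higher, at 9.66 to 10.24 in tumors and 7.89 to 9.64 in peritumoral liver (log2 ratio 1.20, SE 0.29, chosen after its values were seen). The mean of 5 Kupffer cell and macrophage markers was 7.61 to 8.60 in tumors and 8.23 to 9.34 in peritumoral liver. Of these 5, Cd68 reached higher levels in tumors, at 7.42 to 10.49 against 6.99 to 8.37 in peritumoral liver, with overlap. Over the 32 genes the median difference was -0.18, -1.05, 0.94, -0.22 and -0.44 for numbers 1 to 5, so number 3 was higher in the tumor. Cela1, an elastase known from the pancreas, was higher in all tumors, at 8.42 to 9.37 against 6.65 to 8.05 in peritumoral liver (log2 ratio 1.33, adjusted p = 0.173, and 0.0489 without both arrays numbered 2), while Ctrb1, chymotrypsinogen of the pancreas, lay at 4.64 to 5.11 in tumors and 4.55 to 5.12 in peritumoral liver. The part of other cell types in the results above was not tested.

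Eif2s3y and Uty, genes of the Y chromosome, were lower in every tumor than in any peritumoral sample. Eif2s3y, a subunit of a translation initiation factor, stood at 4.56, 5.66, 7.04, 4.62 and 4.02 in tumors 1 to 5, against 8.30, 7.51, 7.46, 7.49 and 7.48 in peritumoral samples 1 to 5 and 7.90 ± 0.24 in wild type liver (SD, n = 5). Tumor 3 was closest to the peritumoral level, and the groups did not overlap (log2 ratio -2.47, SE 0.50, adjusted p = 0.164 without pairing and 0.162 with the block). Without tumor 3, Eif2s3y passed as lower (log2 ratio -2.93, adjusted p = 0.0123). Uty, a histone demethylase of the same chromosome, stood at 3.29 to 3.72 in tumors and 3.77 to 4.26 in peritumoral liver (log2 ratio -0.68, adjusted p = 0.145, and 0.0483 without tumor 3). Its levels in tumors were near the lowest values of the arrays (2.61 to 2.78). Kdm5d, a histone demethylase gene also on the Y chromosome, stood at 3.26 to 3.69 in tumors and 3.49 to 3.99 in peritumoral liver, with overlap (log2 ratio -0.34, adjusted p = 0.493). Its 3 probe sets disagreed, with log2 ratios of -1.01, 0.15 and -0.17. Eif2s3x, the copy of Eif2s3y on the X chromosome, did not separate the groups, at 8.53 to 8.80 in tumors and 8.54 to 8.73 in peritumoral liver (chosen after its values were seen). Xist, expressed from an inactive X chromosome, lay at 3.33 to 3.72 in tumors and 3.27 to 3.52 in peritumoral liver.

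Clade B serpins are intracellular protease inhibitors, and the groups overlapped for each of the 11 measured. Of these, 0 passed in limma in either fit and 1 was nominally higher without pairing (9.09%, against 4.65% of all genes). That gene, Serpinb6a, stood at 8.92, 9.36, 9.52, 8.96 and 10.25 in tumors 1 to 5, against 7.95, 9.98, 7.43, 8.35 and 8.06 in peritumoral samples 1 to 5. Peritumoral 2 overlapped with the tumors (log2 ratio 1.05, SE 0.45, adjusted p = 0.517 without pairing and 0.345 with the block). Serpinb9, an inhibitor of granzyme B, had a log2 ratio of 0.21 (SE 0.43) and Serpinb1a one of -0.31 (SE 0.72).

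Median differences by number were compared over the 40 lists. Over all genes the medians were 0.01, 0.01, -0.07, 0.01 and 0.08 for numbers 1 to 5. Cell cycle, oncofetal, ATF4, proteasome and ribosomal protein genes had a median above 0 in all 5 numbers. The 50 ribosomal protein genes differed by a median of 0.23, with 6 nominally higher and 0 nominally lower without pairing and 16 and 0 with the block, and 0 that passed in limma in either fit. Hepatocyte transcription factors, complement and coagulation, acute phase, cytochrome P450, methionine and circadian clock genes had a median below 0 in all 5 numbers. Several of these lay close to the median of all genes, among them cell cycle (0.06), ribosomal protein (0.05) and complement and coagulation genes (-0.03) in number 2. Pericentral, bile acid, matrix and macrophage genes had medians of both signs.

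**Figure D5:**
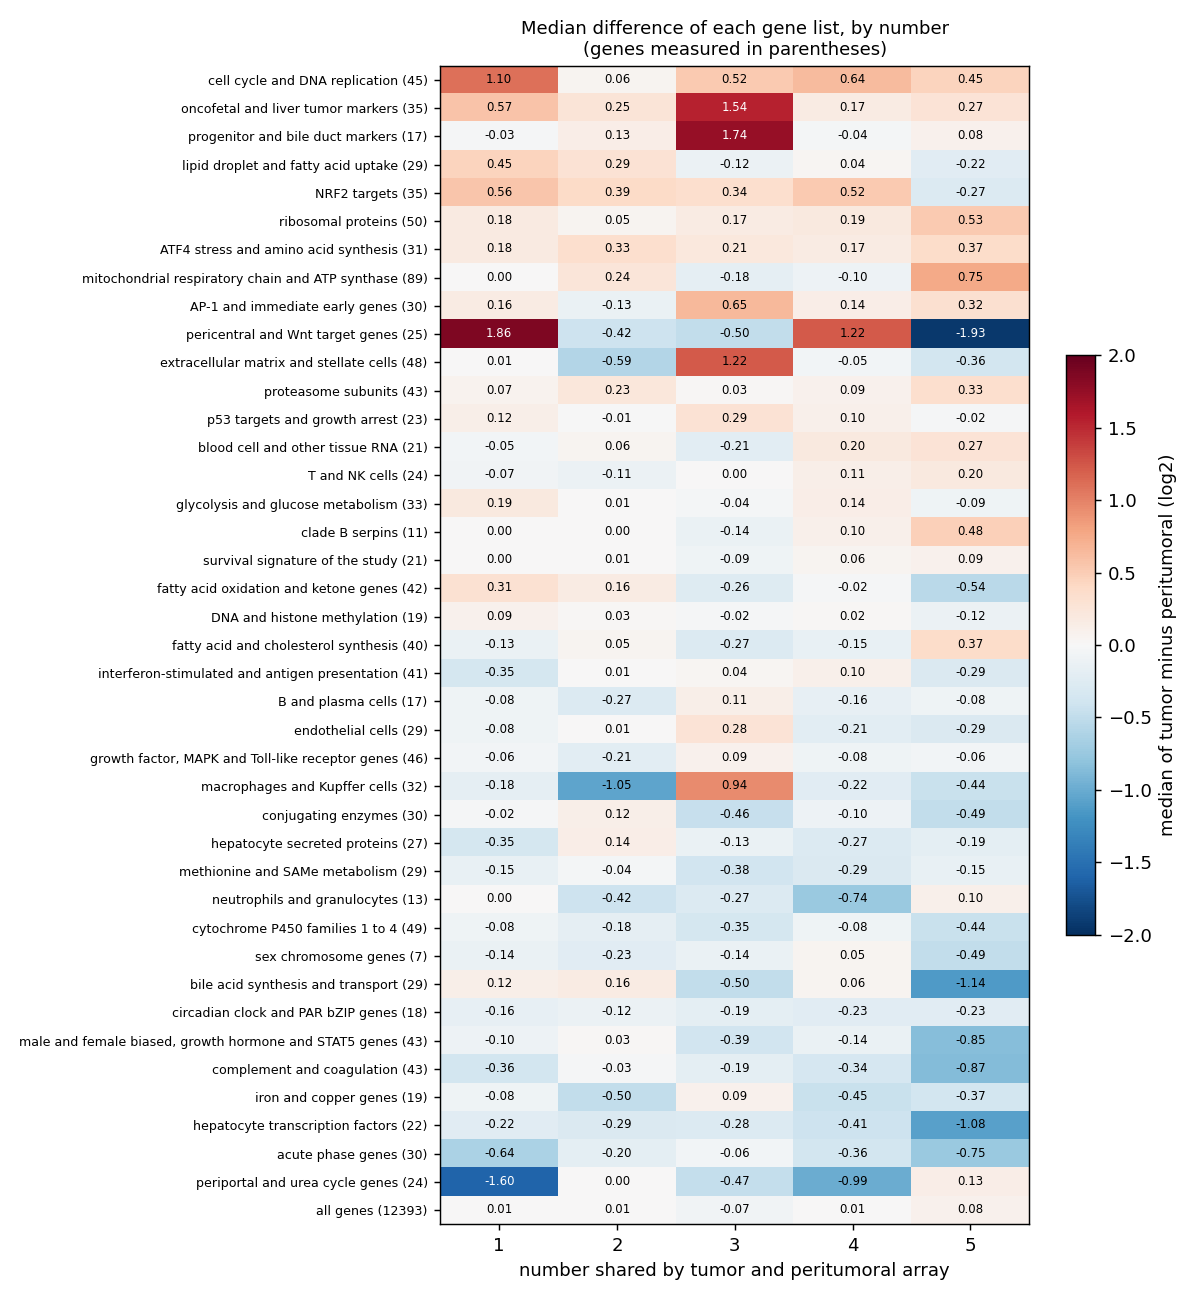
Median difference of tumor minus peritumoral level (log2, color and printed value) for 40 gene lists and for all genes (rows, with the number of genes measured), by the number that the arrays share (columns). Pericentral and Wnt target genes run between 1.86 in number 1 and -1.93 in number 5, and progenitor and bile duct markers reach 1.74 in number 3.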

How the data were processed

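Total RNA of 15 mouse liver samples was hybridized to Affymetrix arrays. The deposited values are log2 levels that the authors made by RMA, which corrects background, quantile-normalizes and summarizes probe sets, after scanning with GCOS 1.4 (submitters' processing notes). The genome build was not given in the sources used here. A second deposited table holds the authors' log2 ratios to wild type liver and was not used. Precision is set by how many arrays each group holds. Array medians lay between 5.47 and 5.68.

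Of 22690 probe sets, 64 were controls, 691 had several gene symbols and 1555 none. The other 20380 were averaged per symbol, which gave 12393 genes (7437 with a single probe set, counted as 1). Symbols are those of the platform annotation.

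Tumors and peritumoral liver were compared with limma 3.58.1 (lmFit, eBayes) in R 4.3.3 on these 10 arrays, without a block and with the replicate number as a block, with Benjamini-Hochberg adjustment over 12393 genes and a threshold of 0.05. SE is that of the log2 ratio, from the fit without the block unless stated, and every adjusted p comes from limma. Deviations of equally numbered arrays from their group means correlated across genes at 0.353, 0.673, 0.271, 0.308 and 0.117, all above 0.1, so the numbers were taken as pairs. Unequal numbers reached 0.330 (tumor 4 with peritumoral 1, above its own 0.308), and peritumoral 5 correlated better with tumor 4 (0.125) than with tumor 5. Other unequal numbers also exceeded 0.1, among them tumor 1 with peritumoral 4 (0.207), tumor 4 with peritumoral 3 (0.205) and tumor 3 with peritumoral 4 (0.193). The threshold thus did not set equal numbers apart. The pairing rests on the values, since the labels state none, and every result with the block depends on it. The script was tested on simulated data in which noise was drawn independently for each array. Those data held no effect shared by equal numbers and no arrays that stood apart, so the test does not cover either feature.

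Named genes are Mat1a, Afp, Hnf4a, clade B serpins, the genes that passed in either fit, the genes of smallest p up to 10 in each direction and fit, and in each gene list those that passed or the 2 of smallest p with the block. Other genes are marked where they appear, except markers of cell types. Members and lists were chosen with earlier results of these data known, so counts within lists are descriptions.

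Alternatives were the probe set of highest mean, removal of probe sets with the name endings _a_at, _s_at or _x_at (shared by transcripts of a gene or open to cross-hybridization), a joint fit of all 3 groups, centered or again quantile-normalized arrays, the lowest 40% of genes left out, a variance trend, array weights, 1 test per probe set, each array left out, and numbers 2 or 2 and 5 left out.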

Additional observations from a re-analysis of the deposited data

Results flagged for a closer look

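A sample was set apart where its gap to the nearest other sample of its group, divided by the range of the group, exceeded 0.71 (Dixon, 5 samples). This was so for 28 of 220 groups of 5 values tested over the 110 named genes, and chance flags about 1 in 20 groups. Of the 28, 19 were values of peritumoral 2 and 4 were values of tumor 2, the arrays that stood apart in the principal component analysis.

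In peritumoral 2, higher values than in the other 4 peritumoral samples were those of Mat1a (11.44 against 8.84 to 9.29), Bex1 (7.60 against 3.27 to 3.93), Ahcy (13.53 against 12.56 to 12.74), Maff (7.56 against 4.99 to 5.23) and Prmt1 (8.47 against 7.35 to 7.55). The same held for Serpinb6b (9.0 against 6.16 to 6.59), Ehd3 (8.31 against 7.71 to 7.87) and Gdf2 (8.96 against 7.81 to 8.04). Lower values in peritumoral 2 were those of Acat1 (8.32 against 10.37 to 10.95), C8a (9.72 against 12.15 to 12.79), Slco1b2 (6.85 against 8.35 to 8.87), Pigr (11.24 against 12.25 to 12.43) and Slc27a5 (12.37 against 12.77 to 12.84). Lower there too were Slc23a1 (6.21 against 7.13 to 7.40), Serpinb9 (6.60 against 7.55 to 7.92), Psmd14 (8.92 against 9.90 to 10.08), Ndufa8 (10.30 against 10.77 to 10.95), Nfib (5.81 against 6.33 to 6.47) and Rgl3 (6.83 against 7.35 to 7.55).

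In tumor 2, Ahcy was high (13.09 against 12.13 to 12.33 in the other tumors), and C8a (7.05 against 10.50 to 11.75), Psmd14 (9.25 against 10.26 to 10.56) and Serpinb8 (4.33 against 5.01 to 5.23) were low. Ahcy, C8a and Psmd14 were thus set apart in the same direction in both samples numbered 2.

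The other 5 were high values in 1 sample each. Oas1a, an interferon-induced gene, stood at 9.54 in tumor 5 (7.66 to 7.88 in the other tumors), and Slc44a1 at 7.78 in tumor 3 (7.08 to 7.28). Psat1 stood at 4.62 in peritumoral 4 (3.55 to 3.72 in the other peritumoral samples), Eif2s3y at 8.30 in peritumoral 1 (7.46 to 7.51) and Klrk1 at 4.17 in peritumoral 5 (3.82 to 3.85).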

How the results depend on the processing

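The count of genes that passed without pairing (2) stayed at 2 with centered or again quantile-normalized arrays, the lowest 40% of genes left out or a variance trend. It was 1 with the replicate block, 4 with the probe set of highest mean, 4 with 1 test per probe set, 41 (26 higher, 15 lower) with all 3 groups in 1 fit, 673 (380 higher, 293 lower) with array weights, 40 without number 2 and 0 without numbers 2 and 5 (758 nominally higher, 854 lower). It was 0 without probe sets with the endings _a_at, _s_at or _x_at, which removes every probe set of Prom1 and Psat1 (451 nominally higher, 509 lower). Leaving out 1 array gave 0 to 36, with 36 without tumor 2 (35 higher, 1 lower) and 30 without tumor 3 (9 higher, 21 lower). It gave 7 without peritumoral 2, 4 without tumor 5 and 1 without peritumoral 1. With the replicate block (1 gene) the count was 0 to 1 with 1 number left out (0 without number 4 or 5, with 571 and 652 nominally higher and 574 and 817 lower), 2 without numbers 2 and 5, 9 without the lowest 40% of genes, 6 with the probe set of highest mean and 10 with centered arrays. Prom1 and Psat1 each passed in 16 of 29 settings, Nupr1 in 9 of 29 and Afp in 8 of 30, all higher in tumors throughout. Of the 110 named genes, 102 kept their direction in every setting run. The other 8 were Mat1a, Slco1b2 (log2 ratio -0.57, from -1.05 to 0.18 over the settings) and 6 clade B serpins. Without number 2 the log2 ratio was 0.01 for Mat1a, 0.00 for Serpinb5 and -0.04 for Serpinb6c. With array weights it was 0.11 for Serpinb1b, 0.04 for Serpinb5, -0.03 for Serpinb6c, 0.00 for Serpinb7 and -0.12 for Serpinb9. Centered arrays gave 0.01 for Serpinb5 and Serpinb7, in both fits, and leaving out probe sets with those endings gave 0.12 for Serpinb5. Without numbers 2 and 5 it was -0.09 for Serpinb6c and 0.18 for Slco1b2 in both fits. With 1 array left out, the range was -0.48 to 0.30 for Mat1a, -0.78 to 0.25 for Serpinb1a (0.25 without peritumoral 3), -0.12 to 0.04 for Serpinb1b, -0.04 to 0.03 for Serpinb5, -0.05 to 0.06 for Serpinb6c, -0.04 to 0.02 for Serpinb7 and -0.08 to 0.48 for Serpinb9. In the fit with the replicate block and 1 number left out it was -0.53 to 0.01, -0.59 to -0.01, -0.07 to 0.00, -0.03 to 0.05, -0.04 to 0.07, -0.04 to 0.04 and -0.02 to 0.38 for the same genes in that order. The cause of these differences was not tested. The number of arrays (5 a group) and the arrays that stand apart limit what the adjusted test could call, so a gene that did not pass is not shown to be alike in tumors and peritumoral liver.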

Other observations

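Some gene groups have not been described above. Of 29 lipid droplet and fatty acid uptake genes 0 passed in limma in either fit. Without pairing 4 were nominally higher (13.8%, against 4.65% of all genes) and 3 nominally lower (10.3%, against 4.63%). With the block 4 were higher and 4 lower (13.8% each, against 6.19% and 7.09%). The median difference was 0.45, 0.29, -0.12, 0.04 and -0.22 for numbers 1 to 5. Fabp4, a carrier of fatty acids, stood at 5.95 to 6.76 in tumors and 4.82 to 5.93 in peritumoral liver (log2 ratio 1.14, adjusted p = 0.173). Its 4 probe sets disagreed, with log2 ratios of 2.15, 0.31, 0.22 and 1.86. Plin3, a coat protein of lipid droplets, stood at 8.55 to 9.0 in tumors and 8.07 to 8.42 in peritumoral liver (log2 ratio 0.49, adjusted p = 0.173). Both were higher in every tumor than in any peritumoral sample. Of 30 AP-1 and immediate early genes 0 passed in limma in either fit. Without pairing 2 were nominally higher (6.67%, against 4.65% of all genes) and 1 nominally lower (3.33%, against 4.63%). With the block 10 were higher (33.3%, against 6.19%) and 2 lower (6.67%, against 7.09%). Ier3, an early response gene, was higher in each tumor than in the peritumoral sample of its number, at 7.77, 9.39, 8.29, 7.06 and 9.59 in tumors 1 to 5, against 5.45, 9.06, 4.70, 5.47 and 6.31 in peritumoral samples 1 to 5. Samples numbered 2 differed least for this gene.

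Among 19 iron and copper genes 0 passed in limma in either fit. Without pairing 0 were nominally higher and 3 nominally lower (15.8%, against 4.63% of all genes). With the block 0 were higher and 6 lower (31.6%, against 7.09%). Tfr2, an iron sensor of hepatocytes, was lower in each tumor than in the peritumoral sample of its number, at 10.03 to 11.44 in tumors and 10.96 to 11.72 in peritumoral liver (log2 ratio -0.80, adjusted p = 0.350 without pairing and 0.206 with the block). Hamp, the iron hormone hepcidin, chosen after its values were seen, stood at 10.28, 12.40, 11.96, 10.81 and 13.58 in tumors 1 to 5, against 13.03, 13.88, 12.86, 12.40 and 13.41 in peritumoral samples 1 to 5. Tumor 5 was the 1 tumor above the peritumoral sample of its number (log2 ratio -1.31, SE 0.57). Of 89 genes of the mitochondrial respiratory chain and ATP synthase 0 passed in limma in either fit, and the median difference was 0.00, 0.24, -0.18, -0.10 and 0.75 for numbers 1 to 5, so tumor 5, in which pericentral genes were lowest, was the highest for this group.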
